A study of Mus musculus with 21 samples.

Results

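The genes described here are 55 genes of mitosis and chromosome segregation, measured in mouse bone marrow-derived macrophages. They were taken by name from the deposited RNA sequencing table after its RefSeq transcript identifiers had been matched to gene symbols, with the transcript of highest mean count standing for each gene. All 55 were found among the 25067 genes named in the table, and all 55 passed the filter on low counts and were among the 12529 genes tested. They were sorted by known role into 8 classes.

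The study compared macrophages of wild-type (WT) mice with macrophages labelled Nur77-KO, before and after lipopolysaccharide (LPS), the cell wall component of Gram-negative bacteria that activates macrophages through a toll-like receptor. Nur77 is a nuclear receptor encoded by Nr4a1. Bone marrow of male C57Bl6/J mice aged 6 to 12 weeks had been grown for 7 days in medium with 15% L929-conditioned medium, a source of macrophage colony-stimulating factor, and the cells were then left untreated (0 h) or given 100 ng/ml LPS for 4 h or 18 h. Each time point had 4 WT libraries, numbered 1 to 4, and 3 labelled-KO libraries, numbered 2 to 4, so 21 libraries in all. The genotype field of the labelled-KO libraries reads "cre". Whether the deletion was germline or conditional, and which promoter drove a Cre, is not stated. The labels do not say that the numbers are separate mice, so a p-value reflects how these libraries vary, which may be technical.

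During mitosis the duplicated chromosomes are condensed, attached through their kinetochores to the spindle, held back by the spindle checkpoint until every kinetochore is attached, and then separated when the anaphase-promoting complex marks securin and cyclin B for destruction; cytokinesis finally splits the cell. The genes that encode this machinery are transcribed together in G2 and mitosis. In resting cells the DREAM complex represses them through a promoter element called the CHR, and in cycling cells B-MYB and FOXM1, joined to the MuvB core, activate them from the same element, often with NF-Y bound to CCAAT boxes nearby. Macrophages grown from marrow divide in response to macrophage colony-stimulating factor and leave the cycle when they are activated by LPS.

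Promoter windows of 300 bases, from 250 before to 50 after the annotated start (RefSeq, build GRCm38.p6), were given for 46 of the 55 genes. There was none for Spc24, Ccna2, Tpx2, Aurkb, Kif20a, Foxm1, Incenp, Smc4 and Cdca2. A CHR-like hexamer, TTTGAA or TTCGAA on either strand, was present in 37 of the 46 windows (80.4%), against 19.4% of the 27025 genes with a window. At least 1 CCAAT on either strand was present in 34 (73.9%, against 37.9%), and both a CHR-like hexamer and at least 2 CCAAT in 20 (43.5%, against 2.43%). A match is a description of letters in this window and not a bound site. The genes of the 6 windows below differed in behaviour. Mki67 and Kif4 rose 4 h after LPS, and Cdk1 and Cdca8 fell. Cenpa was not lower in untreated labelled KO, and Bub3 kept within 34.6 to 53.5 CPM in all 21 libraries. The windows were chosen by their letters and not by this behaviour. Among the 16 genes given below in every library, they are the 6 of highest mean CPM with a CHR-like hexamer and at least 2 CCAAT. Each is written 5′ to 3′ along the gene's strand, and capitals mark these hexamers and the CCAAT boxes (read as ATTGG on the other strand), wherever they were found.
The windows lie at chr7:135716330-135716629, minus strand (Mki67), chrX:100625815-100626114, plus strand (Kif4), chr10:69352863-69353162, minus strand (Cdk1), chr4:124936868-124937167, minus strand (Cdca8), chr5:30666636-30666935, plus strand (Cenpa) and chr7:131560120-131560419, plus strand (Bub3).
Mki67: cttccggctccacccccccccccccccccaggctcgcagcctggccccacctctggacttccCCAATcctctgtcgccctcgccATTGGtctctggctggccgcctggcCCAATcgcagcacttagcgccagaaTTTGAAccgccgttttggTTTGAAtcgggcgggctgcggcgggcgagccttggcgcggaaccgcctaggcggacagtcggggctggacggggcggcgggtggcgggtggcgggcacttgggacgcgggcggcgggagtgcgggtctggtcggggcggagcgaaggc
Kif4: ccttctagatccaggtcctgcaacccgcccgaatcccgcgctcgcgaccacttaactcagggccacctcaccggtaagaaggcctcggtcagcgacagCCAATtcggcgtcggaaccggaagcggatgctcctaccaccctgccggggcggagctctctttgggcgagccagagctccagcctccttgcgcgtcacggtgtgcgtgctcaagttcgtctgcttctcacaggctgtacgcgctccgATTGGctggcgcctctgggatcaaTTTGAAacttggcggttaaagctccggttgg
Cdk1: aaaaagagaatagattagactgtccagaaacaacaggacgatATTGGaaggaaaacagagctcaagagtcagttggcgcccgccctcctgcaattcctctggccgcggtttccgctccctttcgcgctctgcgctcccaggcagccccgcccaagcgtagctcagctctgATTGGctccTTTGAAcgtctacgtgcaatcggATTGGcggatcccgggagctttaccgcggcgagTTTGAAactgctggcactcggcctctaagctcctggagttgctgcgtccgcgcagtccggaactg
Cdca8: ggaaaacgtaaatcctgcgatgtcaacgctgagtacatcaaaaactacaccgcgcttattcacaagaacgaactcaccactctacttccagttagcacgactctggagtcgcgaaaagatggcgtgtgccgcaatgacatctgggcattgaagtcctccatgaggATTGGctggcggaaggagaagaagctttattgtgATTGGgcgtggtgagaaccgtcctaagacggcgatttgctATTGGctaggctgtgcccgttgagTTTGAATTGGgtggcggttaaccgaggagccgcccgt
Cenpa: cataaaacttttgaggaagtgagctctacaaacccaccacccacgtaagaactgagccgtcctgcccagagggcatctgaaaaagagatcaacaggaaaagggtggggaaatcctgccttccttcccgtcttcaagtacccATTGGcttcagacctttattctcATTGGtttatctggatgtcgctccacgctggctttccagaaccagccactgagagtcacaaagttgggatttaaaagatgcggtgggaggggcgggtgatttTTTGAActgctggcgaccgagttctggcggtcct
Bub3: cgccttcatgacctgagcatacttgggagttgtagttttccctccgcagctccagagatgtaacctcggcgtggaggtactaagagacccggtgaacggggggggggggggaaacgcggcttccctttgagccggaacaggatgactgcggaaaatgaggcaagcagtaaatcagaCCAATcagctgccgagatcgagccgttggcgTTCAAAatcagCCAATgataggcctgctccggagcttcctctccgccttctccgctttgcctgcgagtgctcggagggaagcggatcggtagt
The hexamers of Mki67 began 116 and 98 bases before the start and those of Cdk1 71 and 15 bases before it. The Bub3 hexamer began 43 bases before the start, whereas those of Kif4, Cenpa and Cdca8 began 20, 17 and 14 bases after it. In Cdca8 the hexamer and an ATTGG share an A. All 6 windows held at least 2 CCAAT boxes because they were chosen by these letters. Their sharing therefore says nothing about genes that rose or fell after LPS.

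Deposited totals ran from 23478281.5 to 55852932 estimated counts per library, of which 12301504 to 29650081 remained once a single transcript stood for each gene. All values below are CPM, counts scaled to a common library total, on library sizes scaled by edgeR's trimmed mean of M-values. Values in brackets after a gene are log2 fold changes, the first group named minus the second, with the standard error (SE) where given. Levels are compared between libraries for 1 gene at a time and not between genes. A gene is called where its adjusted p (edgeR quasi-likelihood test over 12529 genes, Benjamini-Hochberg adjustment) was under 0.05. All 10 macrophage markers looked for were expressed, at a summed level of 13197 to 25472 CPM over the libraries. Exons of 15 of the 55 genes overlap those of another gene in the annotation, and 4 (Ccnb1, Ccnb2, Kif22 and Kif4) have a named pseudogene, so their counts are less certain. The transcript of the targeted gene, Nr4a1, did not separate the genotypes at 0 h, where it was 13.4 to 16.2 CPM in WT and 12.2 to 12.4 CPM in labelled KO (log2 fold change -0.25, edgeR adjusted p = 0.75). It was lower in labelled KO at 4 h (0.531 to 1.21 against 1.3 to 7.25 CPM) and higher at 18 h (2.1 to 3.48 against 0.965 to 1.33 CPM). Directions below are therefore those of libraries labelled KO.

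Untreated labelled-KO macrophages held less RNA of nearly every gene of this set. Of the 55 genes 43 were lower and 0 higher, where 2.87% of all genes tested were lower and 1.11% higher, and the median log2 fold change was -1.17, where it was 0.01 over all genes tested. The 3 labelled-KO libraries lay below all 4 WT libraries for 52 of the 55 genes, as they did for 8.72% of all genes tested. The summed level of the 55 was 758 to 889 CPM in WT and 445 to 478 CPM in labelled KO. A gene of the set stood on average (median) at 44.7% of its mean in untreated WT, with quartiles of 37.3% and 55%. The lowest fold changes were those of Cep55 (-2.06), the organiser of the final cut between daughter cells, Nusap1 (-2.05), a spindle microtubule protein, and Cenpf (-2.02), a kinetochore protein. The lowest adjusted p was that of Kif11 (-1.58, edgeR quasi-likelihood test, Benjamini-Hochberg adjusted p = 9e-07), the motor that pushes spindle poles apart.

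In these bulk libraries, fewer dividing cells and less mitotic RNA per cell cannot be told apart. Genes of other marrow cells differed between the same groups, where 1.11% of all genes tested were higher in labelled KO and 2.87% lower. Neutrophil and granulocyte precursor markers were higher in labelled KO for 8 of 9 tested (summed level 79.2 to 135 against 28.3 to 49.1 CPM), and 3 of 12 monocyte markers were higher and 2 lower (598 to 684 against 430 to 537 CPM). The monocyte list includes Nr4a1, the targeted gene, which was not called at 0 h. Stromal markers summed to 184 to 377 CPM in labelled KO and 14.6 to 238 CPM in WT, with none of 12 called. WT number 2, the WT library richest in stromal markers, was also the WT library with the highest level for 34 of the 55 genes, and labelled-KO number 4, the richest in labelled KO, was the highest of its group for 6. The same count was not made over all genes tested. Without the library richest in stromal markers in each of the 6 groups, 26 genes of the set were lower and 0 higher. That run also held fewer libraries in every group. Over the settings other than single-library removal, that run among them, the median log2 fold change of the set was -1.2 to -0.99. Without labelled-KO number 4 at 0 h alone 28 were lower. The 0 h calls of 24 genes held in every alternative run, and those of Ccnb1, Ccnb2, Cdc20, Cdk1, Ect2, Espl1, Foxm1, Kif15, Kif18b, Kif20a, Kif22, Kif2c, Mad2l1, Ndc80, Plk1, Racgap1, Spc25, Ttk and Ube2c ended in at least 1. The part of neutrophil and monocyte RNA in the difference was not tested.

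**Figure D1:**
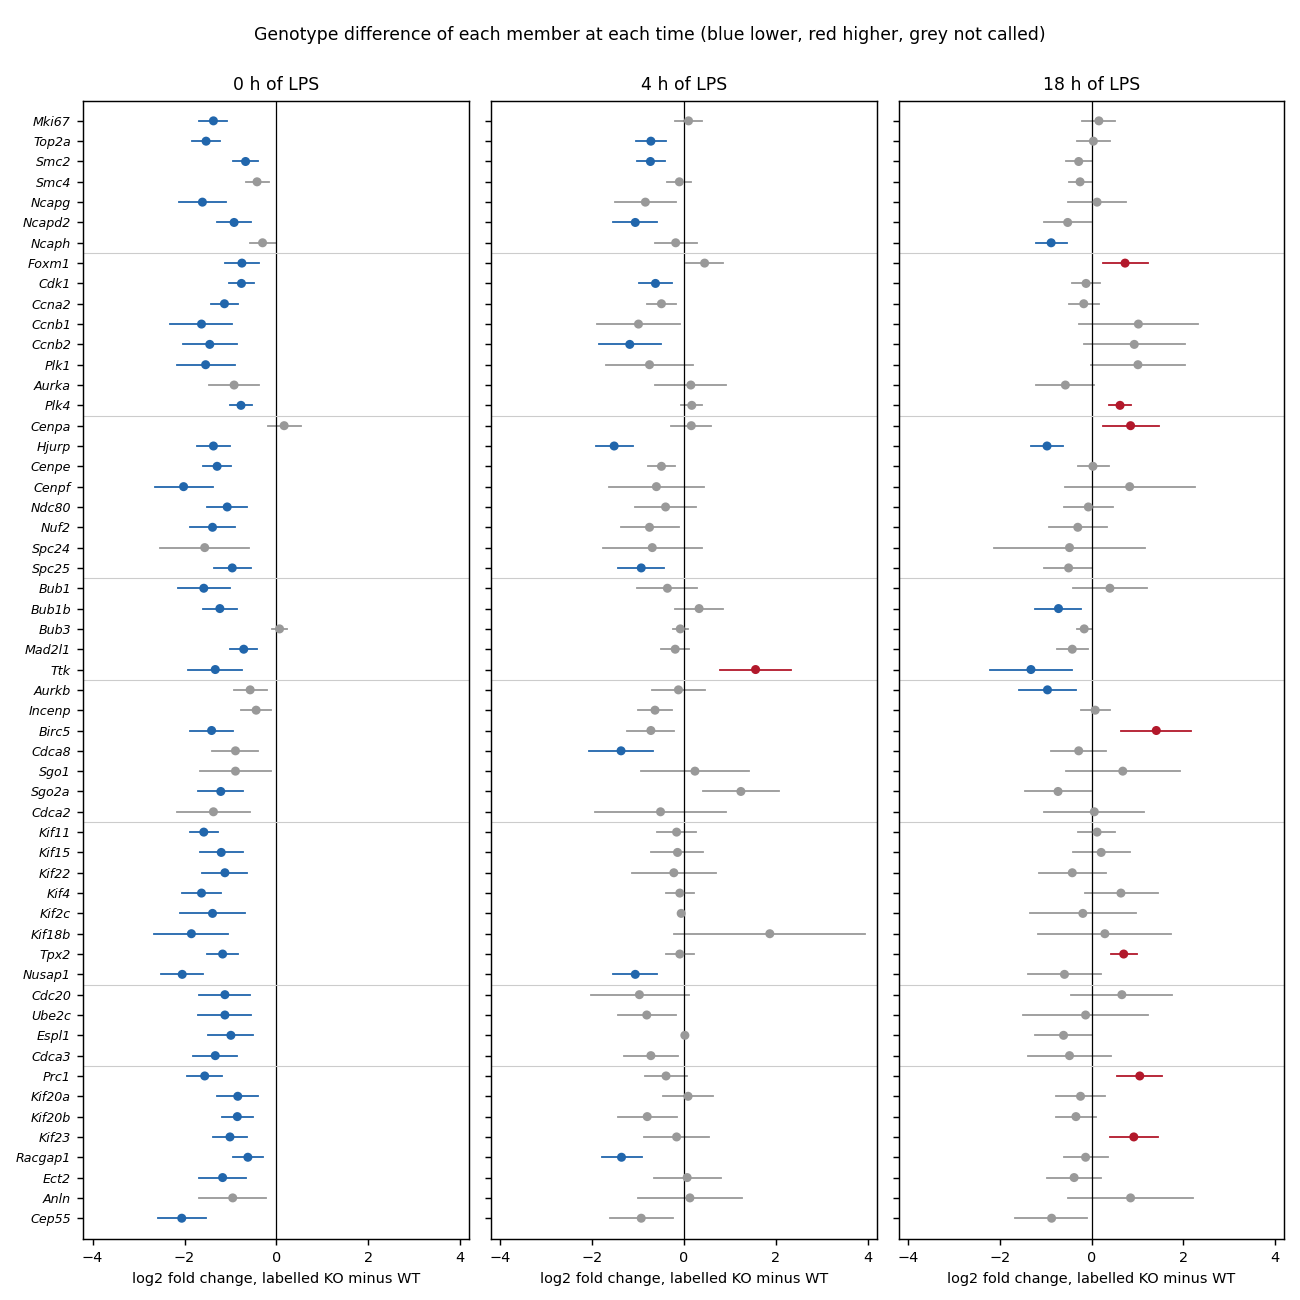
Log2 fold change of labelled KO minus WT for each of the 55 genes at 0, 4 and 18 h of LPS, with bars for the 95% interval (none where the test statistic was near 0), genes in order of role. At 0 h 43 genes are lower, at 4 h 10 are lower and 1 higher, and at 18 h 5 are lower and 7 higher.

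LPS lowered most of the set in WT. At 4 h 45 of the 55 genes were lower and 4 higher than at 0 h (43% and 35.1% of all genes tested), with a median log2 fold change of -1.77 (all genes tested -0.17). At 18 h 50 were lower and 3 higher (36.3% and 34.8% of all genes tested), with a median of -2.49 (all genes tested -0.05). A gene of the set then stood at a median of 17.4% of its untreated WT level, after 29.1% at 4 h. With upper-quartile scaling, 55.4% and 44.6% of all genes tested were lower at 4 h and 18 h, so the share of higher genes among all calls dropped from 45% to 32.6% at 4 h and from 48.9% to 38.6% at 18 h.

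The falls came at different times. In WT 43 genes were lower at both times, and 7 (Ccnb2, Cenpe, Kif4, Mad2l1, Mki67, Spc24 and Ube2c) were lower at 18 h without being lower at 4 h. Between 4 h and 18 h 26 genes fell and 13 rose (34.5% and 37.2% of all genes tested). Of the 26 that fell, 18 had already fallen by 4 h, and the others include Mki67, Kif4 and Cenpe, which had risen. Of those 13, 12 had fallen by 4 h, so for Aurka, Bub1b, Cdk1, Ect2, Espl1, Hjurp, Incenp, Kif20b, Kif22, Ncaph, Ndc80 and Sgo2a the 4 h level was below the 18 h level. The 4 genes that rose at 4 h in WT were Kif4, Tpx2, Mki67 and Cenpe, and the 3 that were higher at 18 h were Tpx2, Hjurp and Bub3. The Cenpe call ended with upper-quartile scaling (adjusted p = 0.6 by edgeR), as did those of Hjurp and Bub3 at 18 h (adjusted p = 0.054 and 0.064 by edgeR).

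In labelled KO LPS also lowered most of the set, from a lower untreated level, and the median change was nearer to 0. At 4 h 33 of 55 genes were lower and 7 higher (41.5% and 33.5% of all genes tested), with a median of -1.03, and at 18 h 44 were lower and 4 higher (38.5% and 34.5% of all genes tested), with a median of -1.28. Between 4 h and 18 h 16 fell and 10 rose (32.1% and 33.3% of all genes tested). The LPS changes of WT and of labelled KO share no library. Cenpe, Foxm1, Kif4, Mad2l1, Mki67, Plk4 and Tpx2 rose at 4 h, and Hjurp, Incenp, Plk4 and Tpx2 were higher at 18 h. The Foxm1 call ended with upper-quartile scaling (adjusted p = 0.37 by edgeR).

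The difference between the LPS changes of the genotypes was tested as an interaction, in which a positive value means a smaller fall or a larger rise in labelled KO. At 4 h 9 of 55 genes were higher and 0 lower in this test (0.599% and 0.2% of all genes tested), namely Bub1b, Foxm1, Kif11, Kif4, Mki67, Plk4, Sgo2a, Tpx2 and Ttk. At 18 h 21 were higher and 0 lower (8.57% and 9% of all genes tested), with a median of 1.09 (all genes tested -0.01). All 9 genes called at 4 h and all 21 called at 18 h had been lower in labelled KO at 0 h. Of these 21, 17 had fallen by 18 h in both genotypes. At 18 h a gene of the set stood at a median of 17.4% of its untreated WT mean in either genotype. The interaction uses the same 0 h libraries in which these genes were lower in labelled KO. Without the library richest in stromal markers in each group, 1 gene (Mki67) was higher at 4 h, and 13 were higher and 1 lower at 18 h. Without labelled-KO number 4 at 4 h alone, 4 were higher at 4 h. The interactions of 12 of the 21 genes at 18 h held in every alternative run.

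**Figure D2:**
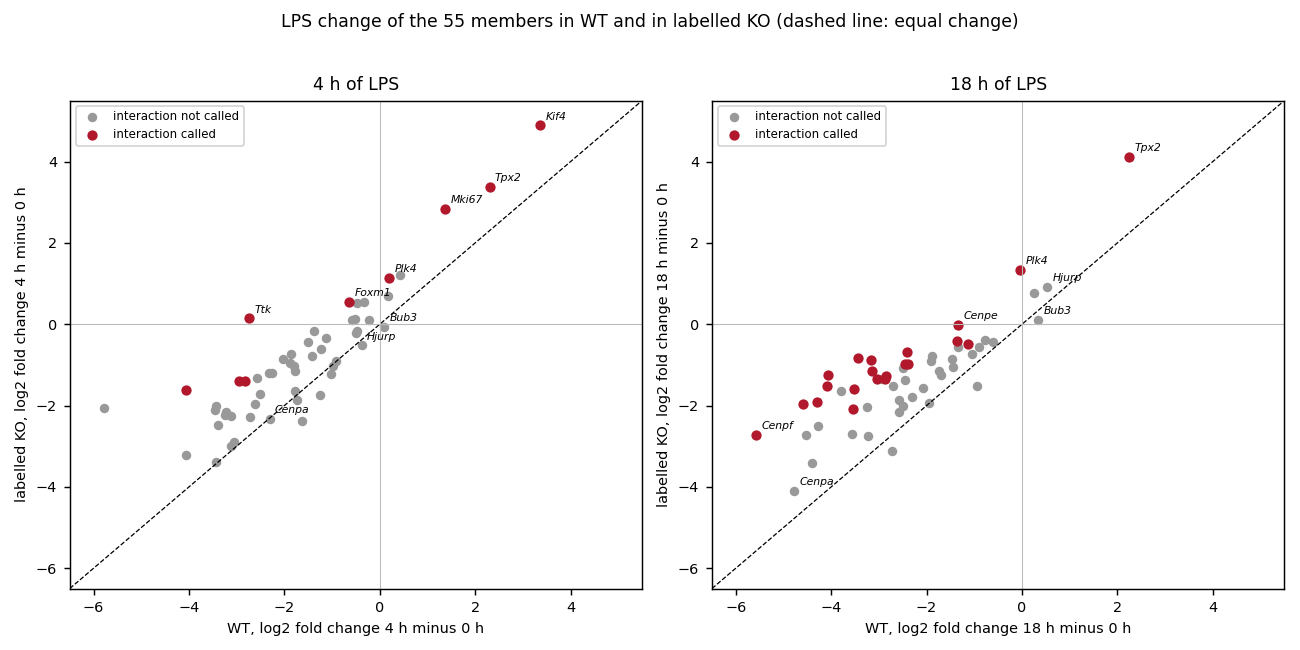
Log2 fold change of each of the 55 genes from 0 h to 4 h (left) and from 0 h to 18 h (right), in WT on the horizontal and labelled KO on the vertical axis, with genes called in the interaction in red and the dashed line marking equal change. Most points lie above the line, with 9 called genes at 4 h and 21 at 18 h.

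Once LPS had acted, the genotypes differed less. At 4 h 10 of 55 genes were lower in labelled KO and 1 higher (2.7% and 2.87% of all genes tested), with a median of -0.39. At 18 h 5 were lower and 7 higher (15.6% and 16.6% of all genes tested), with a median of -0.13, so the called share at 18 h was below that of all genes. Of the 43 genes lower at 0 h, 34 were not called at 18 h, 6 were higher (Birc5, Foxm1, Kif23, Plk4, Prc1 and Tpx2) and 3 were lower (Bub1b, Hjurp and Ttk). Hjurp was the single gene lower in labelled KO at all 3 times. Of the calls at 4 h 2 held in every alternative run (Hjurp and Racgap1), and of those at 18 h 5 did (Hjurp, Ncaph, Plk4, Prc1 and Tpx2). The summed level of the 55 was 614 to 690 CPM in WT and 569 to 609 CPM in labelled KO at 4 h, and 368 to 432 against 404 to 434 CPM at 18 h.

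Markers of other cells also differed between the genotypes at these times. At 18 h 11 of 12 stromal markers were higher in labelled KO (57.5 to 1095 against 21.4 to 76.7 CPM), as were 6 of 9 neutrophil markers (328 to 462 against 190 to 277 CPM), 3 of 12 monocyte markers with 2 lower (2914 to 3290 against 2043 to 2671 CPM) and 4 of 8 dendritic cell markers (23.8 to 36.5 against 13.3 to 14.9 CPM). Of all genes tested 16.6% were higher and 15.6% lower at 18 h, so the counts of monocyte markers were near that share. The monocyte list includes Nr4a1, the targeted gene, itself higher in labelled KO at 18 h. At 4 h none of 12 stromal markers and 1 of 9 neutrophil markers were called higher (stromal sums 93.9 to 768 against 39.8 to 141 CPM, neutrophil sums 144 to 203 against 98.3 to 150 CPM). The library of labelled-KO number 4, at 768 CPM of stromal markers at 4 h and 1095 CPM at 18 h, was the highest of its group for 36 of the 55 genes at 4 h and for 29 at 18 h. At 0 h labelled-KO number 4 was the highest for 6. These counts were not made over all genes tested, and a link to stromal RNA was not tested. Without labelled-KO number 2 or number 4 at 4 h, 3 and 4 genes were lower in place of 10, and without the libraries richest in stromal markers 2 were lower and 0 higher. At 18 h 2 genes were lower and 4 higher when labelled-KO number 2 was left out, and 3 were lower when WT number 4 was left out. At 18 h 1 of 5 stem cell and 1 of 3 erythroid markers were lower and 1 mast cell marker was higher, and at 4 h none of these was called. These sums also moved with LPS within WT. Mast cell markers went from 0.219 to 0.399 CPM at 0 h to 108 to 126 CPM at 4 h. Neutrophil markers went from 28.3 to 49.1 CPM at 0 h to 190 to 277 CPM at 18 h, and stem cell markers from 391 to 468 CPM to 77 to 111 CPM. After LPS the sums are therefore not a measure of cell content alone. The part of the neutrophil, monocyte and dendritic cell markers was not tested.

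**Figure D3:**
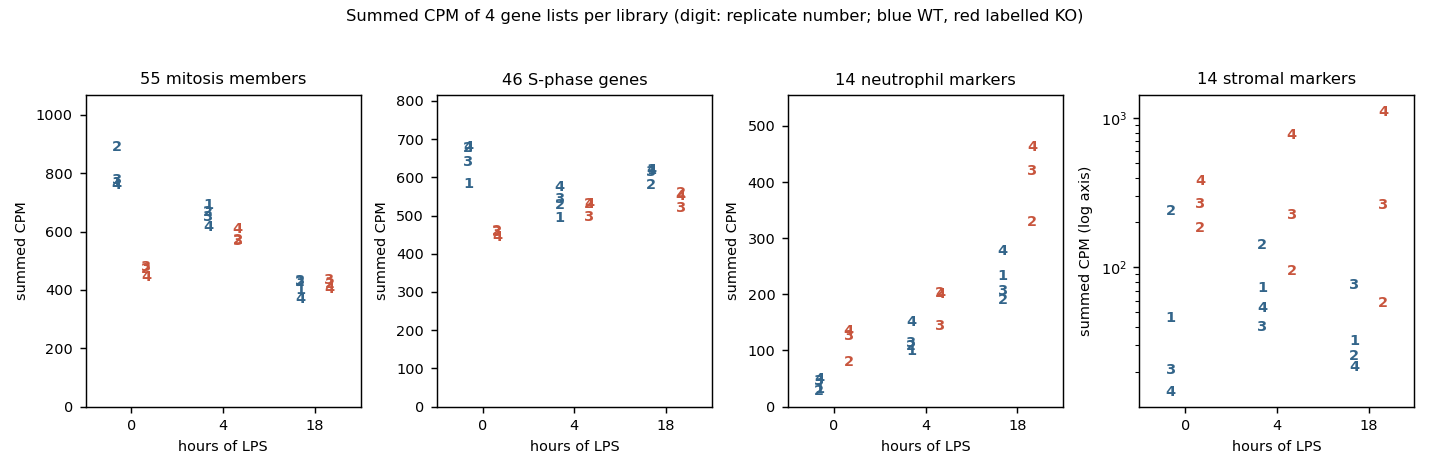
Summed CPM in each library of the 55 mitosis genes, 46 genes of DNA replication, 14 neutrophil and 14 stromal markers (log axis for the last), by hours of LPS, with blue digits for WT and red digits for labelled-KO replicate numbers. The mitosis genes sum to 758 to 889 CPM in untreated WT and 445 to 478 CPM in untreated labelled KO and overlap at 18 h, while labelled-KO number 4 reaches 1095 CPM of stromal markers at 18 h.

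The class of chromatin and condensin holds the chromosome surface protein Ki-67 (Mki67), topoisomerase II alpha (Top2a), which untangles sister DNA, and subunits of condensin, the ring complex that compacts chromosomes. At 0 h 5 of 7 were lower in labelled KO (2.87% of all genes tested). Mki67 (chromosome 7, 135689784 to 135716450, minus strand, in mm10 as for all positions below) was at 64.8, 99, 63.4 and 61.9 CPM in untreated WT and at 25.9, 31.1 and 26.7 CPM in labelled KO (-1.37, SE 0.16; edgeR quasi-likelihood test, Benjamini-Hochberg adjusted p = 6.8e-06). The groups did not overlap, and WT number 2 stood well above the other WT libraries. Unlike most of the set it rose at 4 h, to 210, 176, 190 and 170 CPM in WT and 215, 193 and 192 CPM in labelled KO, before falling at 18 h to 7.69, 9.78, 12.8 and 9.74 CPM in WT and 11, 13 and 9.39 CPM in labelled KO. The rise was larger in labelled KO (2.84 against 1.37 on the log2 scale; interaction 1.47, SE 0.21; edgeR quasi-likelihood test, Benjamini-Hochberg adjusted p = 0.00057), and at 4 h and 18 h the genotypes overlapped. The gene next to it, Ptpre, 3490 bases away on the opposite strand, moved the other way at 4 h, from 72.5 ± 2.73 to 21 ± 1.4 CPM in WT (SD, n = 4).

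Smc4 (chromosome 3, 69004738 to 69034623, plus strand), an ATPase core subunit of condensin, was at 116, 93.8, 89.4 and 81.7 CPM in untreated WT and at 70.1, 66.4 and 76.6 CPM in labelled KO. The groups did not overlap, but the difference was not called (-0.42, SE 0.13; edgeR quasi-likelihood test, Benjamini-Hochberg adjusted p = 0.071). After LPS it stood at 71.4, 72.9, 68 and 61.4 CPM at 4 h and 62.4, 70.3, 64.1 and 52.3 CPM at 18 h in WT, and at 58.2, 69.4 and 63.1 CPM at 4 h and 48.7, 65.3 and 43.7 CPM at 18 h in labelled KO, with falls of less than 1 on the log2 scale (-0.61 in WT at 18 h). Its partner Smc2 was lower in labelled KO at 0 h and 4 h (-0.67 and -0.73). Ncaph, the subunit that closes the condensin I ring, had the deepest trough of the class at 4 h, from 13.8 to 16.7 CPM in WT down to 1.28 to 2.16 CPM, and had returned to 7.08 to 9.09 CPM at 18 h (-3.12 and then 2.19). In labelled KO Ncaph was 3.66 to 5.55 CPM at 18 h, below every WT library (-0.88, SE 0.17; edgeR quasi-likelihood test, Benjamini-Hochberg adjusted p = 0.00059), and this call held in every alternative run.

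Of the 8 genes of mitotic entry 7 were lower in untreated labelled KO (2.87% of all genes tested). The class had a median log2 fold change of -1.02. Cdk1 (chromosome 10, 69335146 to 69352912, minus strand), the kinase whose activation starts mitosis, was at 13.9, 17.9, 15.4 and 17 CPM in WT and 10.3, 9.51 and 8.59 CPM in labelled KO (-0.76, SE 0.14; edgeR quasi-likelihood test, Benjamini-Hochberg adjusted p = 0.0015), without overlap. Cdk1 was not called at 0 h without the libraries richest in stromal markers (-0.64, adjusted p = 0.068 by edgeR). At 4 h it had dropped to 3.87, 4.87, 3.66 and 5.96 CPM in WT and 3.08, 2.39 and 3.44 CPM in labelled KO. It was partly restored at 18 h, at 7.45, 6.69, 7.32 and 7.82 CPM in WT and 6.88, 7.18 and 6.19 CPM in labelled KO, where the genotypes overlapped. Ccna2 (chromosome 3, 36564865 to 36573038, minus strand), the cyclin of S phase and G2, was at 16, 21.6, 19.4 and 16 CPM in untreated WT and 8.26, 8.52 and 8.26 CPM in labelled KO (-1.13, SE 0.15; edgeR quasi-likelihood test, Benjamini-Hochberg adjusted p = 5.7e-05), again without overlap. It ran at 11.6, 12.7, 16.1 and 11.2 CPM at 4 h and 7.93, 6.85, 8.04 and 5.49 CPM at 18 h in WT. The labelled-KO libraries gave 7.43, 10.2 and 9.56 CPM at 4 h and 5.83, 7.36 and 5.69 CPM at 18 h. Its exons overlap those of Exosc9 on the other strand, and whether counting used strand is not given, so reads of the 2 genes cannot be told apart.

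The mitotic cyclins fell furthest of this class. In WT Ccnb1 (cyclin B1) went from 2.91 to 6.4 CPM at 0 h to 0.0566 to 0.366 CPM at 18 h (-4.60), and Ccnb2 from 3.86 to 6.55 CPM to 0.183 to 0.313 CPM (-4.30). In labelled KO the falls were -1.95 and -1.92, and both interactions passed (2.65 and 2.38), but each call ended without labelled-KO number 4 at 18 h (adjusted p = 0.074 and 0.37 by edgeR). Plk4, the kinase of centriole duplication, did not follow the class. It was 7.03 to 8.41 CPM in untreated WT and 4.19 to 4.66 CPM in labelled KO (-0.77, SE 0.12). It was not called after LPS in WT (0.20 and -0.04) but rose in labelled KO to 8.91 to 10.1 CPM at 4 h and 9.9 to 12.4 CPM at 18 h. At 18 h all 3 labelled-KO libraries were above all WT libraries (0.62, SE 0.12; edgeR quasi-likelihood test, Benjamini-Hochberg adjusted p = 0.00042). Foxm1, the transcription factor of the G2 and mitosis program, was lower in labelled KO at 0 h (-0.75) and higher at 18 h (0.73), and the 18 h call ended with limma-voom (adjusted p = 0.074).

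**Figure D4:**
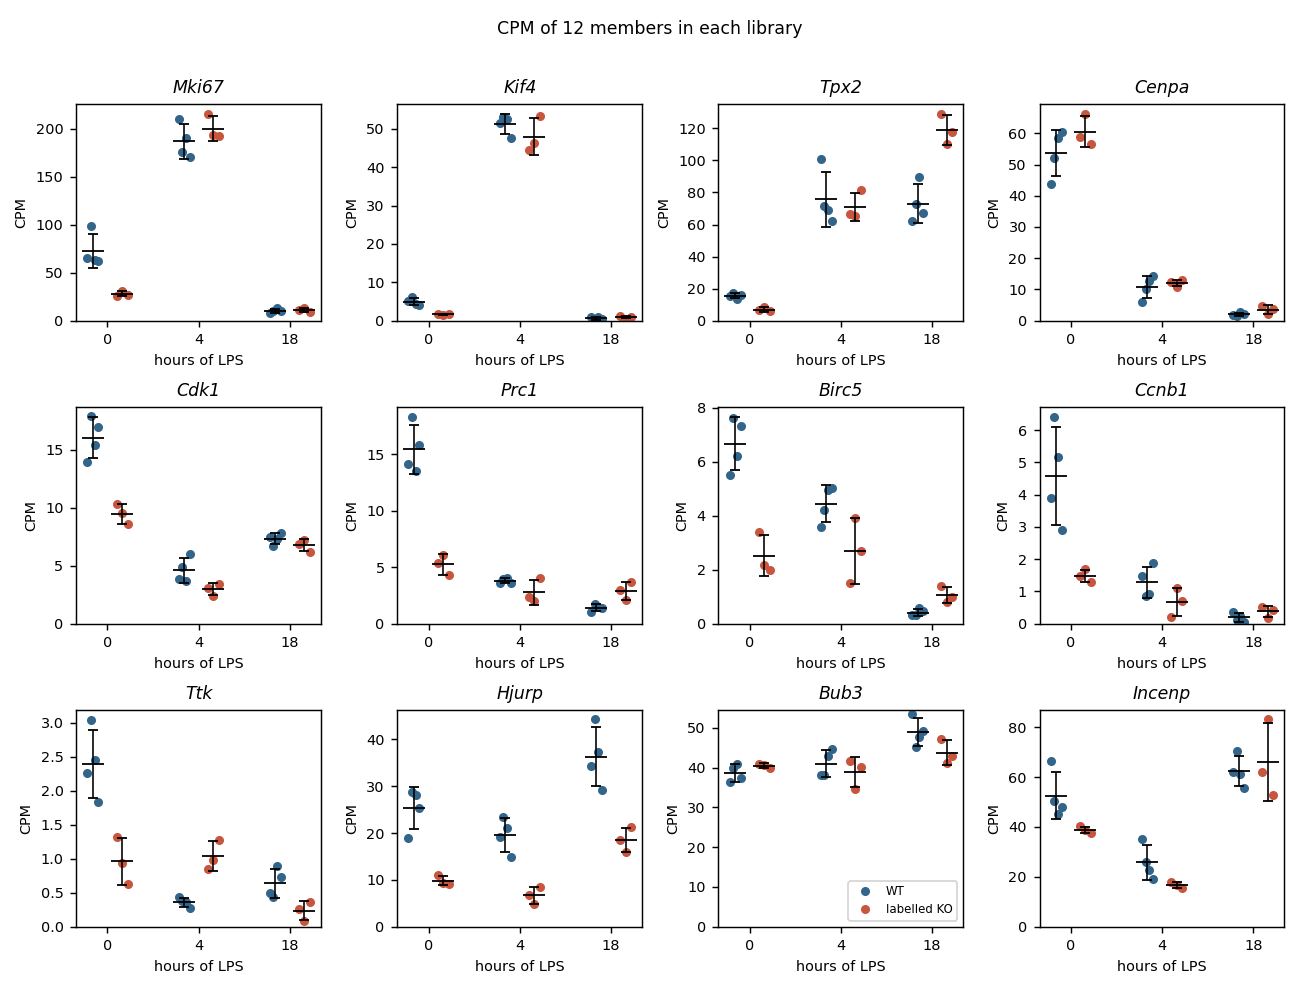
CPM of 12 genes in each library by hours of LPS, blue for WT and red for labelled KO, with the group mean (dash) and SD (bar). Mki67, Kif4 and Tpx2 are higher at 4 h than at 0 h, Cenpa is alike in both untreated groups at 43.9 to 66.1 CPM, and Hjurp is lower in labelled KO at all 3 times.

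Of 8 centromere and kinetochore genes 6 were lower in untreated labelled KO (2.87% of all genes tested), and the exceptions were Cenpa and Spc24. Cenpa (chromosome 5, 30666877 to 30674837, plus strand), the histone H3 variant that marks centromeres, was at 43.9, 52.1, 58.5 and 60.4 CPM in WT and 58.7, 66.1 and 56.6 CPM in labelled KO, with overlap (0.17, SE 0.18; edgeR quasi-likelihood test, Benjamini-Hochberg adjusted p = 0.72). The 95% interval of that log2 difference ran from -0.19 to 0.53. After LPS it fell to 5.9, 10.2, 12.8 and 14.2 CPM at 4 h and 1.71, 1.6, 2.65 and 2.1 CPM at 18 h in WT (-4.77 at 18 h). In labelled KO it was 12.4, 10.8 and 12.9 CPM at 4 h and 4.79, 2.19 and 3.63 CPM at 18 h, and the higher value at 18 h (0.85) was a call that ended in 8 alternatives, among them upper-quartile scaling (adjusted p = 0.055 by edgeR) and limma-voom (adjusted p = 0.15).

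Hjurp (chromosome 1, 88258856 to 88277644, minus strand), the chaperone that loads Cenpa onto centromeres, took another course. Untreated WT libraries gave 19, 28.8, 28.1 and 25.3 CPM and labelled-KO libraries 11, 9.36 and 9.08 CPM (-1.37, SE 0.18; edgeR quasi-likelihood test, Benjamini-Hochberg adjusted p = 4.7e-05). At 4 h the values were 19.1, 23.5, 21 and 14.9 CPM in WT and 6.69, 4.89 and 8.35 CPM in labelled KO (-1.52, SE 0.21; edgeR quasi-likelihood test, Benjamini-Hochberg adjusted p = 9.3e-05). At 18 h they were 34.3, 44.3, 37.3 and 29.2 CPM in WT and 18.4, 15.9 and 21.2 CPM in labelled KO (-0.97, SE 0.18; edgeR quasi-likelihood test, Benjamini-Hochberg adjusted p = 0.00037). The groups were apart at each time and these 3 calls held in every alternative run. Hjurp dipped at 4 h in WT (-0.38), a call that ended with DESeq2 (adjusted p = 0.11), and was higher at 18 h than at 0 h in both genotypes (0.53 in WT and 0.92 in labelled KO). Its interaction with LPS was not called at either time (-0.15 and 0.40). Cenpe, a kinesin of the kinetochore, rose at 4 h in both genotypes (0.42 and 1.21) and was below its untreated level at 18 h in WT (-1.34) but not in labelled KO (-0.01), an interaction that held in every alternative (1.32). Cenpf had the largest fall of the class in WT, from 7.31 to 12.1 CPM to 0.122 to 0.322 CPM (-5.57). Ndc80, Nuf2 and Spc25, subunits of the complex that grips microtubules, were lower in labelled KO at 0 h (-1.07, -1.39 and -0.96), and Spc24, at 0.185 to 1.36 CPM, had the same sign without being called (-1.56, SE 0.49).

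In the spindle checkpoint 4 of 5 genes were lower in untreated labelled KO (2.87% of all genes tested), and Bub3 was the exception. Bub3 (chromosome 7, 131560367 to 131571895, plus strand), the WD40 partner of Bub1 and BubR1 that also has roles outside mitosis, was at 36.3, 40, 40.9 and 37.4 CPM in untreated WT and 41, 40.7 and 39.8 CPM in labelled KO (0.07, SE 0.08; edgeR quasi-likelihood test, Benjamini-Hochberg adjusted p = 0.75). Its groups overlapped, and the 95% interval of the log2 difference was -0.09 to 0.23. It stayed at 38.1, 38.2, 43 and 44.6 CPM at 4 h and 53.5, 45.2, 47.6 and 49.3 CPM at 18 h in WT, and at 41.7, 34.6 and 40.2 CPM at 4 h and 47.2, 41.1 and 43 CPM at 18 h in labelled KO. Mad2l1 (chromosome 6, 66535221 to 66541107, plus strand), the inhibitor that unattached kinetochores produce, was at 12.6, 12.3, 12.8 and 12 CPM in untreated WT and 8.42, 7.39 and 7 CPM in labelled KO (-0.71, SE 0.15; edgeR quasi-likelihood test, Benjamini-Hochberg adjusted p = 0.0052). These groups were fully apart, and without the libraries richest in stromal markers Mad2l1 was not called at 0 h (-0.66, adjusted p = 0.068 by edgeR). At 4 h it was 17.9, 12.6, 13.9 and 12 CPM in WT and 10.7, 11.4 and 14.6 CPM in labelled KO, a rise that was called in labelled KO (0.70) and not in WT (0.18), with an interaction of 0.52 that was not called. By 18 h it was 5.92, 5.75, 6.68 and 6 CPM in WT and 3.57, 5.96 and 4.13 CPM in labelled KO.

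The checkpoint kinases Bub1 and Ttk and the pseudokinase Bub1b (BubR1) were lower in labelled KO at 0 h (-1.58, -1.33 and -1.23). Ttk was the single gene of the set higher in labelled KO at 4 h. It went from 2.26, 3.04, 2.45 and 1.83 to 0.43, 0.375, 0.366 and 0.269 CPM in WT between 0 h and 4 h, whereas labelled KO gave 1.32, 0.936 and 0.63 and then 0.85, 0.978 and 1.28 CPM. At 18 h the order was reversed again, with 0.488, 0.43, 0.885 and 0.736 CPM in WT and 0.261, 0.0876 and 0.356 CPM in labelled KO. The 3 genotype differences were -1.33, 1.56 and -1.32, and the interaction at 4 h was 2.90 (SE 0.49; edgeR quasi-likelihood test, Benjamini-Hochberg adjusted p = 0.0035). These are low levels. The 18 h call ended with DESeq2 and limma-voom (adjusted p = 0.084 and 0.075), and the 4 h call ended when labelled-KO number 4 or WT number 4 was left out (adjusted p = 0.16 and 0.063 by edgeR).

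The chromosomal passenger complex, Aurkb with Incenp, Birc5 and Cdca8, corrects faulty attachments, and the shugoshins Sgo1 and Sgo2a protect centromeric cohesion. This class had the fewest calls at 0 h, 2 of 7 (Birc5, -1.41, and Sgo2a, -1.21), where 2.87% of all genes tested were lower. For 6 of 7 genes the labelled-KO libraries lay below all WT libraries, as for 8.72% of all genes tested. Incenp (chromosome 19, 9872295 to 9899489, minus strand), the scaffold of the complex, was at 66.3, 50.6, 45.1 and 48.2 CPM in untreated WT and 40.2, 38.8 and 37.6 CPM in labelled KO (-0.44, SE 0.17; edgeR quasi-likelihood test, Benjamini-Hochberg adjusted p = 0.18). It fell at 4 h, to 35.2, 26.1, 22.8 and 19 CPM in WT and 17.9, 16.5 and 15.6 CPM in labelled KO, and was back at 62.2, 70.6, 61.3 and 55.6 CPM in WT and 62.2, 83.5 and 53 CPM in labelled KO at 18 h. Its partners Aurkb, Birc5 and Cdca8 were still below their untreated levels at 18 h in both genotypes. Cdca8 (borealin; chromosome 4, 124918465 to 124936917, minus strand) was at 5.91, 7.56, 6.22 and 7.64 CPM in untreated WT and 3.81, 4.04 and 3.19 CPM in labelled KO (-0.89, SE 0.26; edgeR quasi-likelihood test, Benjamini-Hochberg adjusted p = 0.054). At 4 h it stood at 1.17, 4.87, 2.83 and 2.82 CPM in WT and 1.27, 1.3 and 0.829 CPM in labelled KO, where it was called lower in labelled KO (-1.37) although the groups overlapped, and at 18 h at 2.07, 2.54, 2.65 and 2.66 CPM in WT and 1.92, 1.58 and 2.56 CPM in labelled KO.

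Birc5 (survivin) kept more of its level in labelled KO. In WT it went from 5.51, 7.63, 6.22 and 7.31 CPM to 0.305, 0.313, 0.563 and 0.453 CPM at 18 h (-4.06), and in labelled KO from 3.39, 2.17 and 2 to 1.39, 0.788 and 0.996 CPM (-1.24). The labelled-KO libraries were below all WT libraries at 0 h and above all of them at 18 h (1.41, SE 0.39; edgeR quasi-likelihood test, Benjamini-Hochberg adjusted p = 0.0083). Birc5 was not called at 18 h when labelled-KO number 2 was left out (1.18, adjusted p = 0.054 by edgeR). Its interaction at 18 h was 2.82 (SE 0.45; edgeR quasi-likelihood test, Benjamini-Hochberg adjusted p = 0.00027) and held in every alternative. Aurkb, the kinase of the complex, was 0.724 to 1.08 CPM in WT and 0.438 to 0.522 CPM in labelled KO at 18 h (-0.96, SE 0.31), a call that ended with DESeq2 and limma-voom (adjusted p = 0.091 and 0.17). Sgo2a was among the steepest falls at 4 h in WT, from 4.73 to 6.22 CPM to 0.274 to 0.358 CPM (-4.06).

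All 8 genes of spindle motors and microtubule proteins were lower in untreated labelled KO (2.87% of all genes tested), with a median of -1.49. All 8 had groups apart (8.72% of all genes tested). Tpx2 (chromosome 2, 152847964 to 152895321, plus strand), which activates Aurora A and nucleates spindle microtubules, was at 15.3, 17, 13.3 and 16 CPM in WT and 6.51, 8.33 and 5.82 CPM in labelled KO (-1.17, SE 0.17; edgeR quasi-likelihood test, Benjamini-Hochberg adjusted p = 0.00019). It rose at 4 h to 101, 71.6, 68.8 and 62.1 CPM in WT and 66.8, 65.6 and 81.3 CPM in labelled KO, where the groups overlapped. It stayed high at 18 h, at 62.2, 73, 89.8 and 67.1 CPM in WT and 129, 110 and 118 CPM in labelled KO, with every labelled-KO library above every WT library (0.70, SE 0.15; edgeR quasi-likelihood test, Benjamini-Hochberg adjusted p = 0.001). The rise by 18 h was 2.25 in WT and 4.12 in labelled KO on the log2 scale (interaction 1.87, SE 0.23; edgeR quasi-likelihood test, Benjamini-Hochberg adjusted p = 1.8e-05). Bcl2l1, an anti-apoptotic gene 14161 bases away on the opposite strand, also rose, in WT from 33.5 ± 3.67 to 62.8 ± 13.3 and 90.5 ± 7.56 CPM (SD, n = 4).

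Kif4 (chromosome X, 100626065 to 100727271, plus strand), a chromokinesin, had the largest rise of the set and lost it again. It was at 5.14, 6.26, 4.25 and 4.12 CPM in untreated WT and 1.64, 1.53 and 1.63 CPM in labelled KO (-1.63, SE 0.22; edgeR quasi-likelihood test, Benjamini-Hochberg adjusted p = 4.8e-05). At 4 h it reached 51.5, 53.2, 52.6 and 47.5 CPM in WT and 44.4, 46.2 and 53.4 CPM in labelled KO (3.36 and 4.90), and at 18 h it was 0.915, 0.235, 0.965 and 0.34 CPM in WT and 1.13, 0.525 and 0.925 CPM in labelled KO, below the untreated level in both. The genotypes were apart at 0 h and overlapped at 4 h and 18 h. Pdzd11, whose counted transcript lies 117 bases from that of Kif4 on the opposite strand, and which has an annotated exon overlapping Kif4 in GENCODE, was 16.8 ± 1.27 CPM at 0 h, 66.8 ± 3.52 CPM at 4 h and 50.1 ± 2.02 CPM at 18 h in WT (SD, n = 4). Both genes were high at 4 h, and Pdzd11 alone remained high at 18 h. Since strand treatment is not given, reads of this pair cannot be told apart, and Kif4 also has a named pseudogene. The part of either in the 4 h value was not tested.

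The other motors fell. Kif11 went from 11.4 to 15.3 CPM in untreated WT to 1.65 to 2.09 CPM at 4 h and 1.4 to 1.87 CPM at 18 h, and from 3.93 to 4.55 CPM in labelled KO to 1.06 to 1.98 and 1.31 to 1.92 CPM, so that the genotypes overlapped after LPS. Kif2c, a microtubule depolymerase, and Kif22, which moves chromosome arms, fell at 4 h in WT (-3.45 and -3.39). Kif18b, which shortens astral microtubules, had 2 counts in all over the 4 WT libraries at 4 h, so no fold change is given. Nusap1 was among the lowest of the set in untreated labelled KO, with 2.01, 2.32 and 1.63 CPM against 7.43, 9.08, 8.1 and 8.2 CPM in WT, and was still lower at 4 h (-1.06, SE 0.24; edgeR quasi-likelihood test, Benjamini-Hochberg adjusted p = 0.013). It was not called at 4 h when labelled-KO number 2 or 4 was left out (adjusted p = 0.07 and 0.088 by edgeR).

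All 4 genes of anaphase and its ubiquitin ligase were lower in untreated labelled KO, again with groups apart. Of all genes tested 2.87% were lower and 8.72% were lower without overlap. Ube2c (chromosome 2, 164769929 to 164772902, plus strand), the ubiquitin-conjugating enzyme of the anaphase-promoting complex, was at 4.1, 5.93, 5.21 and 5.3 CPM in WT and 2.91, 2.66 and 1.56 CPM in labelled KO (-1.12, SE 0.29; edgeR quasi-likelihood test, Benjamini-Hochberg adjusted p = 0.03). That call ended in 8 alternatives, among them summed transcripts (adjusted p = 0.093 by edgeR). In WT it was not called at 4 h (2.83, 5.16, 4.39 and 5.28 CPM, -0.22) and was low at 18 h (0.305, 0.274, 0.241 and 0.113 CPM, -4.40). Labelled KO gave 2.97, 2.72 and 1.98 CPM at 4 h and 0.0871, 0 and 0.498 CPM at 18 h. Cdca3 (chromosome 6, 124829530 to 124833701, plus strand), an adaptor of a ubiquitin ligase that acts on mitotic entry, was at 5.62, 6.91, 6.31 and 6.37 CPM in untreated WT and 2.06, 3.01 and 2.41 CPM in labelled KO (-1.33, SE 0.25; edgeR quasi-likelihood test, Benjamini-Hochberg adjusted p = 0.0019). After LPS it stood at 2.09, 2.81, 2.92 and 2.87 CPM at 4 h and 0.549, 0.47, 0.161 and 0.85 CPM at 18 h in WT and at 1.49, 1.52 and 1.79 CPM at 4 h and 0.174, 0.175 and 0.711 CPM at 18 h in labelled KO. Cdc20, the activator of the complex, and Espl1 (separase), the protease that cuts cohesin, had already fallen by 4 h in WT (-3.06 and -3.25), and Espl1 then rose between 4 h and 18 h (1.82) while Cdc20 fell again (-1.22).

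Of 8 cytokinesis genes 7 were lower in untreated labelled KO (2.87% of all genes tested). All 8 were lower in WT at both 4 h and 18 h (43% and 36.3% of all genes tested). Racgap1 (chromosome 15, 99620496 to 99651656, minus strand), which forms centralspindlin with Kif23, was at 13.5, 18.8, 14.4 and 16.5 CPM in untreated WT and 11.4, 10.2 and 9.33 CPM in labelled KO (-0.62, SE 0.16; edgeR quasi-likelihood test, Benjamini-Hochberg adjusted p = 0.031). The 0 h difference was not called with any 1 labelled-KO library left out (adjusted p = 0.056, 0.12 and 0.15 by edgeR for numbers 2, 3 and 4). At 4 h it was 3.26, 5.53, 6.58 and 5.15 CPM in WT and 1.7, 2.06 and 2.1 CPM in labelled KO, and this 4 h difference held in every alternative run (-1.36, SE 0.22; edgeR quasi-likelihood test, Benjamini-Hochberg adjusted p = 0.00074). At 18 h it was 1.95, 1.6, 1.85 and 1.36 CPM in WT and 1.39, 1.4 and 1.78 CPM in labelled KO, with overlap. Kif20a (chromosome 18, 34624624 to 34633277, plus strand), the motor that carries passengers to the midzone, was at 11.1, 14.9, 13 and 15 CPM in untreated WT and 7.52, 8.23 and 6.82 CPM in labelled KO (-0.84, SE 0.23; edgeR quasi-likelihood test, Benjamini-Hochberg adjusted p = 0.038), which was not called when labelled-KO number 2, 3 or 4 was left out (adjusted p = 0.13, 0.087 and 0.16 by edgeR). After LPS it ran at 2.27, 6.19, 2.74 and 3.67 CPM at 4 h and 5.37, 3.99, 3.14 and 3.46 CPM at 18 h in WT and at 3.29, 3.37 and 4.78 CPM at 4 h and 4.44, 3.24 and 2.56 CPM at 18 h in labelled KO, with overlap at both times.

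Prc1, the bundler of the central spindle, and Kif23 crossed over between the genotypes. Prc1 was at 14.1, 18.3, 13.5 and 15.8 CPM in untreated WT and 5.35, 6.11 and 4.26 CPM in labelled KO, and at 1.04, 1.76, 1.45 and 1.36 CPM in WT and 2.96, 2.1 and 3.7 CPM in labelled KO at 18 h. Its labelled-KO libraries were thus all lower at 0 h (-1.56, SE 0.19) and all higher at 18 h (1.05, SE 0.25; edgeR quasi-likelihood test, Benjamini-Hochberg adjusted p = 0.0031), with an interaction of 2.61, SE 0.31, and these calls held in every alternative run. Kif23 was lower at 0 h (-1.01) and higher at 18 h (0.92), where it was 0.9 to 1.21 CPM in WT and 1.48 to 2.45 CPM in labelled KO. The Kif23 difference at 18 h was not called when labelled-KO number 3 was left out (0.76, adjusted p = 0.064 by edgeR). Ect2, Anln and Cep55, which activate RhoA, build the contractile ring and sever the bridge, were not called between genotypes at 4 h or 18 h.

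**Figure D5:**
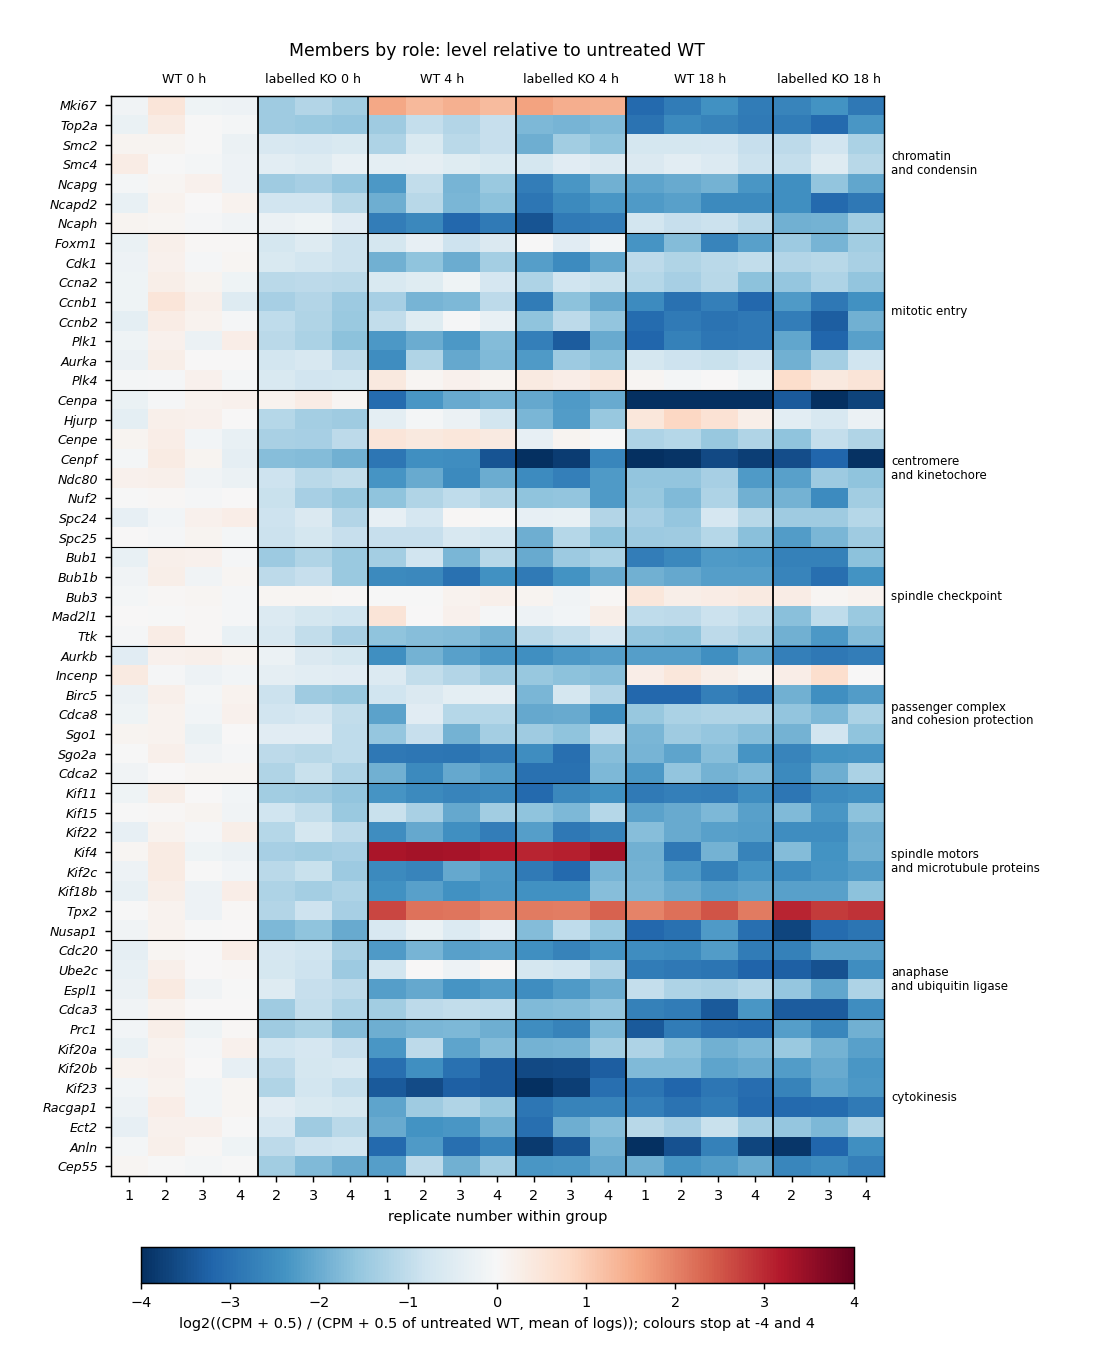
Level of each of the 55 genes (vertical, by role) in each of the 21 libraries (horizontal, by group), as the log2 ratio of CPM + 0.5 to the untreated WT libraries, blue lower and red higher. Untreated labelled KO is paler blue across nearly all genes except Cenpa and Bub3, and Kif4, Tpx2 and Mki67 are red at 4 h.

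Other gene lists of the cell cycle gave the surroundings of the set at 0 h, where 2.87% of all genes tested were lower in labelled KO and 1.11% higher. Of 62 further mitotic genes tested 22 were lower in labelled KO and 0 higher (median -0.82), with Depdc1a (-1.97) and Hmmr (-1.96), a spindle protein, lowest. Of 46 genes of DNA replication and S phase 24 were lower and 0 higher (median -0.66), with the thymidine kinase gene Tk1 (-1.91) and Uhrf1 (-1.72), which maintains DNA methylation, lowest. Of 20 genes of DREAM, MuvB, E2F and Rb 4 were lower, with the repressors E2f7 (-1.53) and E2f8 (-1.30) lowest. Of 20 G1 and growth genes 2 were lower, Ccnd1 (-1.24), the cyclin D1 gene, and Myc (-1.06). Of 14 further condensin and cohesin genes 2 were lower, Esco2 (-2.18) and Ncapg2 (-1.34), and of 16 genes of the anaphase-promoting complex none was called (median 0.06). Of the remaining markers none was called of 5 of stem cells and progenitors, 3 erythroid and megakaryocyte, 1 mast cell and 1 lymphocyte marker tested, and 1 of 8 dendritic cell and 1 of 10 macrophage markers was higher. The globin genes Hba-a1, Hba-a2, Hbb-bs and Hbb-bt and the mast cell genes Fcer1a, Tpsb2, Cma1 and Ms4a2 were at 0 in every library.

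After LPS most genes of the mitotic and replication lists were lower in WT. Of the 62 further mitotic genes 45 were lower and 6 higher at 4 h in WT (43% and 35.1% of all genes tested), and 49 were lower and 6 higher at 18 h (36.3% and 34.8%). In labelled KO 34 were lower and 9 higher at 4 h (41.5% and 33.5% of all genes tested). Of 46 replication genes 35 were lower and 6 higher at 4 h in WT, and 26 were lower and 5 higher at 18 h (medians -1.03 and -0.58), to be read against the same shares of all genes. Clspn (-3.87), a replication checkpoint adaptor, and Pole2 (-3.78) were lowest at 4 h, and Rfc3 (2.36) and Ccne1 (1.36), the cyclin E1 gene, highest. In labelled KO 19 of 46 were still lower than in WT at 18 h and 1 higher (median -0.43), with Pole2 (-2.26) and Mcm2 (-1.71) lowest and Ccne1 (1.09) higher. At that time 15.6% of all genes tested were lower and 16.6% higher. Of the G1 list Ccnd2 (6.45), the cyclin D2 gene, and Gadd45b (5.21) rose most at 4 h in WT, and Gadd45a (-2.70) and Cdkn2c (-2.53), a Cdk4 inhibitor gene, fell most. At 18 h 8 of 20 G1 genes were higher and 2 lower in labelled KO, with Cdkn2d (0.87), Ccnd2 (0.80) and Cdkn1c (-2.38) furthest from 0. Among DREAM and E2F genes Mybl2, which encodes B-MYB, was higher in labelled KO at 18 h (1.10) and had the largest interaction (2.30).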

How the data were processed

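RNA of 21 macrophage libraries was extracted with RNeasy columns and made into libraries with a KAPA mRNA HyperPrep kit, per the labels' protocols. The submitters' processing notes name CASAVA 1.8.2, HISAT2 2.1.0 and mm10. The counting tool, its use of strand and its handling of reads shared between genes are not stated. The authors deposited 1 table of estimated counts per RefSeq transcript, not normalized, some of them fractions.

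Of 42361 transcript identifiers 42203 were matched to symbols through RefSeq and 65 through GENCODE. The 93 others, which held 0.232% to 2.229% of a library's counts, were left out. The transcript of highest mean count stood for each of 25067 genes, and counts were rounded to whole numbers. The members, their roles and all other gene lists were chosen with earlier results of these data known.

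One edgeR 4.0.16 quasi-likelihood model over the 6 groups (R 4.3.3, limma 3.58.1) was fitted to 12529 genes that passed filterByExpr, with trimmed mean of M-values scaling and Benjamini-Hochberg adjustment at 0.05. The SE is the log2 fold change over the square root of F. DESeq2 1.42.0, limma-voom, other scalings, filters, fits of the compared groups alone, summed transcripts, a replicate block and the removal of libraries were alternatives. The model was tested on simulated counts. Tables and figures used Python 3.11.15, pandas 2.3.3 and matplotlib 3.10.9. All members may be named; the 2 of highest mean CPM in each role were given in every library, together with members called against the majority, of lowest adjusted p or with an interaction.

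The labels number the replicates without saying what a number shares. Deviations from the group means correlated above 0.1 at every same-numbered pair between untreated and 4 h WT libraries (r = 0.27 to 0.33, differing numbers -0.30 to 0.09). They also did between 4 h and 18 h labelled-KO libraries (0.16 to 0.56, differing numbers -0.50 to 0.14). No other pair of groups passed 0.1 throughout. Same-numbered r was still positive throughout between untreated and 4 h labelled KO (0.05 to 0.21) and between 4 h and 18 h WT (0.05 to 0.15). It was also positive between the genotypes at 18 h (0.04 to 0.18). The model has no block, and the replicate block was fitted as an alternative in every comparison. Libraries of the same group always differed by more than sampling noise (lowest chi-square per degree of freedom 6.48).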

Additional observations from a re-analysis of the deposited data

Results flagged for a closer look

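The highest or lowest library stood far from the other 3 in 3 of 51 WT groups of 4 looked at, by Dixon's criterion, which chance meets in about 1 of 20 groups. They were Mki67 in untreated WT number 2 (99 CPM), Cdca3 in WT number 1 at 4 h (2.09 CPM), and the summed level of the 55 genes in untreated WT number 2 (889 CPM). That library was also the untreated WT library richest in stromal markers.

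The LPS change differed between the genotypes, by edgeR's interaction test, in 9 genes at 4 h. The log2 values were 1.47 for Mki67, 1.19 for Foxm1, 0.93 for Plk4, 1.55 for Bub1b, 2.90 for Ttk, 2.45 for Sgo2a, 1.42 for Kif11, 1.54 for Kif4 and 1.08 for Tpx2. All 9 are positive, which is a smaller fall or a larger rise in labelled KO. Ttk and Sgo2a rest on few counts, 21 and 19 over all WT libraries at 4 h. Of the 9, the Mki67 call alone held in every alternative run.

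At 18 h it differed in 21 genes, also all positive. Among chromatin genes the values were 1.53 for Mki67, 1.57 for Top2a and 1.73 for Ncapg. Among genes of mitotic entry they were 1.48 for Foxm1, 0.65 for Cdk1, 0.96 for Ccna2, 2.65 for Ccnb1, 2.38 for Ccnb2, 2.55 for Plk1 and 1.39 for Plk4. At the kinetochore, checkpoint and passenger complex they were 1.32 for Cenpe, 2.85 for Cenpf, 1.98 for Bub1 and 2.82 for Birc5. Among motors and cytokinesis genes they were 1.70 for Kif11, 1.41 for Kif15, 2.28 for Kif4, 1.87 for Tpx2, 1.46 for Nusap1, 2.61 for Prc1 and 1.93 for Kif23. Some rest on few counts: Ccnb1, Cenpf, Ccnb2 and Plk1 had 13, 14, 19 and 24 over all WT libraries at 18 h. The calls of Bub1, Ccnb1, Ccnb2, Cdk1, Cenpf, Foxm1, Kif15, Nusap1 and Plk1 ended in at least 1 alternative.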

How the results depend on the processing

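Over the 55 genes and 11 comparisons, 5801 checks under an alternative kept a call, 381 lost it and 0 changed its direction. Without the library richest in stromal markers in each group, 26 genes were lower in labelled KO at 0 h, 2 were lower and 0 higher at 4 h, the interaction was higher for 1 at 4 h, and at 18 h it was higher for 13 and lower for 1. That run held fewer libraries in every group. With limma-voom 6 genes were lower at 4 h and 2 at 18 h, with DESeq2 2 at 18 h, and with only the compared groups fitted 4 were lower and 0 higher at 4 h and 2 lower at 18 h. With upper-quartile scaling 1 gene in place of 3 was higher in WT at 18 h, and the median of all genes at 4 h in WT moved from -0.17 to -0.52 while that of the 55 moved from -1.77 to -2.11, so falls relative to all genes were alike. In labelled KO at 4 h the share of higher genes among all calls moved from 44.7% to 33.4%. The cause was not tested.

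With each library left out in turn, 28 to 44 genes were lower in labelled KO at 0 h, 3 to 12 were lower and 0 to 2 higher at 4 h (2 without labelled-KO number 3), and 2 to 5 were lower and 4 to 8 higher at 18 h. The interaction was higher for 4 to 10 at 4 h and lower for 0 to 1 at 18 h (1 without labelled-KO number 4 at 18 h). Between genotypes, calls held in every alternative that tested the gene for 24 of 43 genes at 0 h. The same was true of 2 of 11 at 4 h and 5 of 12 at 18 h. For LPS it was true of 45 of 49 and 51 of 53 in WT at 4 h and 18 h, and 35 of 40 and 39 of 48 in labelled KO. Of the interactions 1 of 9 and 12 of 21 held. A call was not counted as lost where an alternative's filter dropped the gene. With a mean of at least 1 CPM required, 47 genes were lower in WT at 18 h in place of 50. Genes called over all genes ranged from 314 to 709 around 499 at 0 h, from 141 to 896 around 697 at 4 h, from 2229 to 4191 around 4034 at 18 h, from 26 to 204 around 100 for the interaction at 4 h and from 901 to 2506 around 2202 at 18 h. The replicate block moved no count of the 55 by over 1.5 times. It ended the calls of Kif2c at 0 h and Bub1b at 18 h between genotypes (edgeR adjusted p = 0.051 for both), Kif22 in WT between 4 h and 18 h (0.075), and Ccnb1 and Nuf2 in labelled KO at 4 h (0.054 and 0.051), and ended no other call of the 55 genes. Depth limits the low genes: Kif18b had 2 counts over the 4 WT libraries at 4 h.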
